A study of Mus musculus with 8 samples.

Results

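The late response to neocarzinostatin was examined in mouse embryonic fibroblasts as the difference between the arrays of 24 h after the drug and the untreated arrays of 0 h, taken within each genotype. Neocarzinostatin is a radiomimetic drug that cuts both strands of DNA. These 4 arrays were 4 of the 8 in the series: Atm+/+ fibroblasts at 0 h and 24 h, and Atm-/- fibroblasts from littermate embryos at 0 h and 24 h, with 1 array for each genotype and time. The other 4 arrays, of 4 h and 8 h in both genotypes, entered the fit as an estimate of the spread. Atm-/- cells lack the Atm kinase, Atm+/+ cells carry it, and both were grown as adherent cultures in serum. The labels give no embryo number, culture number or dose, so each genotype stands for 1 line, and no array of untreated cells at 24 h was used here. The changes below can therefore not be told apart from 24 h in culture, and p-values measure only the spread among these 8 arrays.

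Atm is the kinase that senses double-strand breaks. It phosphorylates checkpoint and repair proteins and stabilises p53, which induces the cell-cycle inhibitor Cdkn1a and its own regulator Mdm2, and it also feeds a signal to NF-kB, the transcription factor of many cytokine genes. Cells that carry unrepaired breaks are known to leave the cell cycle, to secrete cytokines and, in some settings, to switch on interferon-stimulated genes. In such cells the DREAM complex and loss of B-Myb and Foxm1 activity are known to lower the genes of DNA replication and mitosis.

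RNA was hybridised with Cy3 to 1-colour Agilent arrays that hold probes for mRNAs and for long noncoding RNAs. A level below is the log2 of the processed signal minus the 75th percentile of that array, so that 0 is the 75th percentile and levels of different probes are not comparable. Between 57.3% and 61.4% of spots were well above background on the 8 arrays. The Atm+/+ 24 h array stood apart, with 1545 outlier spots against 44 to 203 on the others, and 1496 of the 23297 probes kept had no value there. Each genotype lay on a slide of its own and each time at the same position of both slides, so slide cannot be told apart from genotype, nor position from time. The Atm probe read -2.07 and -2.43 at 0 h and 24 h in Atm+/+ cells, and -3.19 and -3.15 in Atm-/- cells. It was lower on all 4 Atm-/- arrays than on all 4 Atm+/+ arrays, its place relative to the deleted part of the gene is not given in the sources used here, and it did not pass the test for a change at 24 h (adjusted p = 0.712, limma).

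Of 23161 probes tested, 591 (2.55%) differed between 24 h and 0 h at a limma adjusted p below 0.05, with time and genotype in the fit and 3 residual degrees of freedom. Of these, 248 (1.07%) were higher and 343 (1.48%) were lower. They covered 189 and 242 distinct gene symbols. The changes called ranged from 3.996 to -2.326 on the log2 scale, and the smallest in size was 0.5852. Before adjustment, 6071 probes had a p under 0.05. Where both genotypes had a value, 572 called probes moved the same way and 0 moved opposite ways. The test itself sets most of that agreement, because a difference between the genotypes enters the spread it divides by. Among all tested probes with both values, 14143 moved the same way and 7494 moved opposite ways, and the Pearson correlation of the 2 changes across probes was 0.34. This count was not split by direction. The counts below of list genes higher or lower in both genotypes therefore have no share of all genes beside them.

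**Figure D1:**
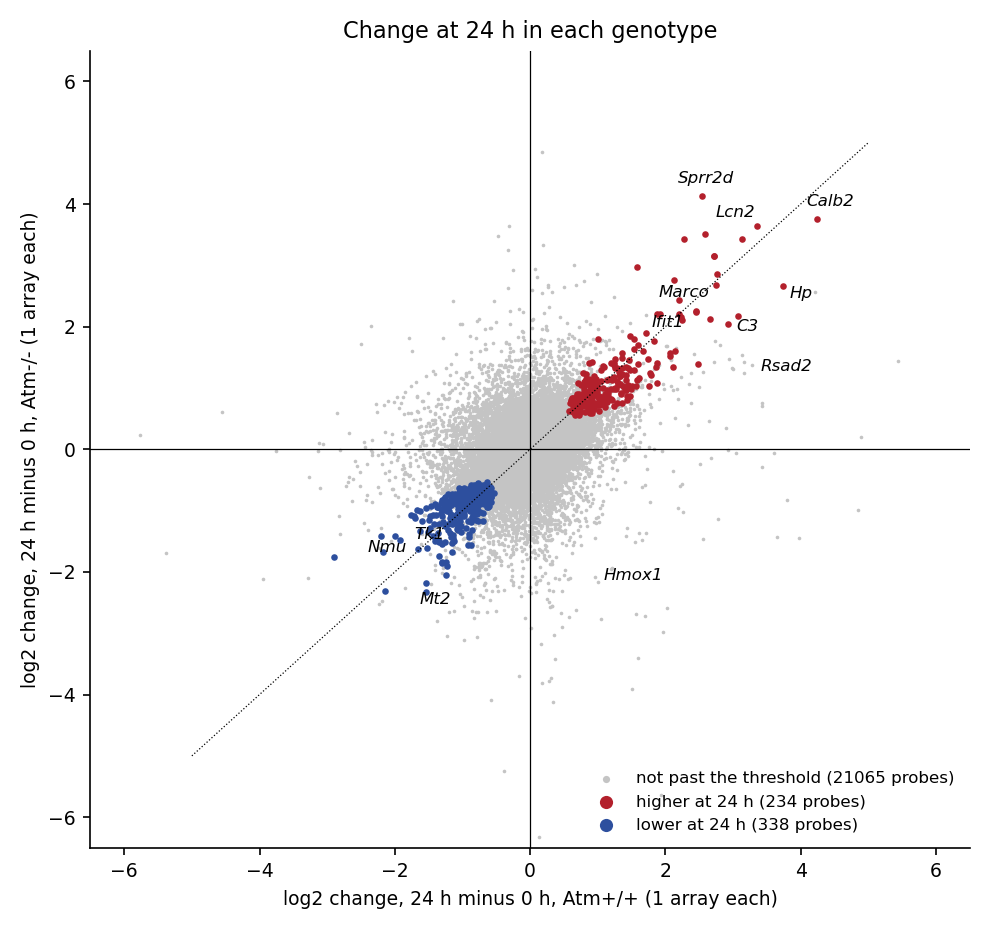
Each point is 1 probe, with its log2 change from 0 h to 24 h in Atm+/+ cells on the x axis and in Atm-/- cells on the y axis, and the dotted line marks equal change. The called probes lie along that line, 234 of them higher and 338 lower in both genotypes, while Rsad2 and Hmox1 lie away from it and did not pass the test.

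These calls need all 8 arrays. Leaving out 1 of the 4 arrays in turn left 0 calls without the Atm+/+ 0 h, the Atm+/+ 24 h or the Atm-/- 0 h array and 7 without the Atm-/- 24 h array, with 1 residual degree of freedom less each time, while 3101 to 8001 probes kept an unadjusted p under 0.05. The 84 named genes and noncoding probes past the threshold kept their direction in each alternative that gave them a value. No value so obtained moved by over 1.5 times when 1 array was left out. Both outcomes were largely set in advance, because the 84 were picked as called on these same arrays. Neither is a check on the calls. Of the 84, 57 had a value when probes had to be well above background on all 8 arrays, 78 without the Atm-/- 24 h array, 83 without the Atm+/+ 0 h array and 10 in the authors' deposited table. Scaling also set the balance of the calls. The share of higher probes among them was 42% here, 51.8% after quantile normalization, 70.2% with the median as reference and 93.9% with 33 calls when the percentile was taken over spots without outliers, a step that moved the median change of all probes from -0.07 to 0.12. List medians are therefore best read against the median of all genes, which was -0.06.

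A simpler count asked which probes passed 2-fold in both genotypes without any test. Of 20383 probes with a value and signal above background in both, 144 (0.706%) were at least 2-fold higher in both, 115 (0.564%) at least 2-fold lower in both, and 29 (0.142%) passed 2-fold in opposite directions.

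Inflammatory effector and acute-phase genes had among the highest medians of the 28 gene lists at 24 h. These genes encode secreted or surface proteins of innate defence. Of 31 tested, 9 rose and 1 fell, against 1.30% and 1.60% of all 13863 genes tested at 1 probe each, and the list's median change was 1.13. The counts of the lists below are to be read against these 2 shares. The lists were chosen with earlier results of these data known, so a count above these shares may be set in part by that choice. In Atm+/+ cells the median was 1.06 and in Atm-/- cells 0.83. Of the 27 with a value in both genotypes, 19 were higher in both.

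Lcn2, the siderophore-binding protein lipocalin-2, went from -4.86 to -1.51 in Atm+/+ cells and from -4.55 to -0.92 in Atm-/- cells. Both 24 h arrays lay far above both 0 h arrays, and the change was 3.49 ± 0.20 (SE of the fit, 2 arrays a side; limma adjusted p = 0.035), or 11.2-fold. Marco, a scavenger receptor best known from macrophages, went from -0.22 to 2.53 and from -0.36 to 2.32, a change of 2.72 ± 0.11 (limma adjusted p = 0.012). The groups did not overlap for either gene, but both genes were picked for large changes in both genotypes. The share of all probes so separated was not counted. Hp, the haemoglobin-binding protein haptoglobin, rose by 3.74 in Atm+/+ and 2.66 in Atm-/- cells. C3, the central protein of complement, rose from -1.40 to 1.53 and from -1.39 to 0.65. Cfb, its partner in the alternative pathway, has a pair of probes that both passed the test, at 2.44 and 1.87. Acod1, the enzyme that makes itaconate, rose by 2.20 and 2.21, and Fpr2, a receptor for formyl peptides, by 1.88 and 2.20. For Acod1 and for the Cfb probe at 2.44, 1 of the 0 h arrays was not well above background, so the size of the rise from it is uncertain. Mmp10, a secreted protease, rose by 0.91. Saa3, a serum amyloid of mouse, rose by 3.40 in the fit, with no value on the Atm+/+ 24 h array, where its spot was an outlier, and read -0.13 and 3.38 in the Atm-/- pair. Plaur, the urokinase receptor, was the member that fell, by 1.15. Ptgs2, the inducible cyclooxygenase, and Nos2, the inducible nitric oxide synthase, did not pass the test, with changes of -0.41 and 0.28.

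The RefSeq promoter window of Lcn2 (mouse build GRCm38.p6, chr2:32387690-32387989, minus strand) is shown because this gene had the highest change of the list. The window runs from 250 bases before to 50 after the annotated start, and capitals mark the letters GGGNNNNNCC, an NF-kB-like pattern, on either strand.
Lcn2: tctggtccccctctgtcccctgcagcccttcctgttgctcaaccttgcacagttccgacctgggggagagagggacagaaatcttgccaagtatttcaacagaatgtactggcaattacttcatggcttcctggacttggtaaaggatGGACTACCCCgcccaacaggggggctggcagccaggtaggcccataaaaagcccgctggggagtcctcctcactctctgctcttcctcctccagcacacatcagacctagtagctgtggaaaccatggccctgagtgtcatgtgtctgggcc
The match starts 102 bases before the start site. This pattern is loose: 53.5% of 27025 genes with a window hold it in at least 1 window, as do 69.6% of the 11036 among them that were tested on the arrays. Of the genes of the list, 14 of 23 hold it, or 60.9%, which is below the share of tested genes.

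Interleukins, colony-stimulating factors and Tnf carry the signal between cells. Of 21 tested, 6 rose and 1 fell, with a median change of 0.37. Il1b, a pyrogenic cytokine of the interleukin 1 family, went from -6.23 to -3.57 in Atm+/+ and from -6.09 to -3.97 in Atm-/- cells. It was not well above background at 0 h, so its rise is given as at least 4.62-fold, the mean at 24 h over the lowest level that the 0 h arrays could have measured (limma adjusted p = 0.0453). Il1a rose from -5.12 to -3.64 and from -5.86 to -4.02, a change of 1.66 ± 0.15, with 1 of its 0 h arrays not well above background. Il1rn, the natural antagonist of their receptor, rose by 0.96 ± 0.11. Il4ra, a receptor chain for interleukins 4 and 13, rose by 0.67. Il13ra2, a decoy receptor for interleukin 13, rose from background by at least 1.39-fold. Csf2, the granulocyte-macrophage growth factor, passed the test, but all 4 of its spots were not well above background, so no fold is given. Il11, a cytokine of the interleukin 6 family, fell from -1.37 to -2.44 and from -0.08 to -1.11. Tnf went from -2.58 to -1.10 and from -3.38 to -1.97, which was not called (limma adjusted p = 0.0753). Il6 changed by 0.97 in Atm+/+ and 0.19 in Atm-/- cells and did not pass either.

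Chemokines attract leukocytes. Of 20 tested, 3 rose and 0 fell. The list's median change was 1.11, and 13 of the 17 with both values were higher in both genotypes. Ccl20, the ligand of Ccr6, rose from -5.10 to -2.37 and from -5.51 to -2.36, a change of 2.94 ± 0.36 (limma adjusted p = 0.0456). Cxcl3, a neutrophil attractant, rose from -5.68 to -3.20 and from -5.14 to -3.74, with 1 of its 0 h arrays not well above background. Ccl5, an attractant of T cells and monocytes, rose from 0.17 to 1.62 and from -0.58 to 0.74. Cxcl1, Ccl2 and Cxcl10 had changes of 1.54, 0.84 and 1.32 with limma adjusted p of 0.0967, 0.104 and 0.109, and the Atm+/+ 24 h spot of Cxcl10 had no value. Cxcl2 was not well above background on any of the 4 arrays. Of 22 NF-kB subunits, inhibitors and kinases, 1 rose, or 4.55%, against 1.30% of all genes tested. It was Ikbke, a kinase related to the IkB kinases, with 1.13 ± 0.16. A single call says little about the list. The inhibitors Nfkbia and Tnfaip3, themselves targets of NF-kB, had changes of 0.46 and 0.05 and did not pass.

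Interferon-stimulated genes are the effectors of antiviral defence and are switched on by interferon signalling. Of 38 tested, 12 rose and 0 fell, with a median change of 0.90. The medians of the genotypes lay close together, at 0.96 in Atm+/+ and 0.93 in Atm-/- cells. Of 35 with both values, 32 were higher at 24 h in both genotypes and 1 was lower in both. Over all tested probes, 14143 moved the same way and 7494 opposite ways, not split by direction. Ifit1, which binds RNA lacking the cap mark of the host, rose from -1.33 to 1.12 and from -3.42 to -1.18. That was a change of 2.34 ± 0.20, or 5.08-fold (limma adjusted p = 0.0384). At 24 h the Atm-/- level of Ifit1, -1.18, lay only just above the Atm+/+ level of 0 h, -1.33, while both pairs rose. Ifit3, its partner, rose from -4.15 to -1.08 and from -4.93 to -2.75, but a near-identical copy of this gene exists and the probe may read both. Oasl2, an oligoadenylate synthase-like protein, rose from -0.89 to 0.71 and from -3.97 to -2.27. Irf7, the factor that amplifies interferon production, rose from 0.04 to 1.00 and from -1.40 to -0.46. For Oasl2 and Irf7, the Atm-/- level at 24 h lay below the Atm+/+ level at 0 h. The groups of 24 h and 0 h thus overlapped in level across genotypes for these genes.

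The other called members of this list were the nucleic acid sensors Zbp1, Ifih1 and Ifi204, with changes of 1.59, 0.95 and 0.63, and the interferon-induced GTPases Gbp3, Gbp7 and Igtp, with changes of 1.27, 1.41 and 1.19. Usp18, which removes Isg15 from proteins, rose by 1.06, and Parp14 by 1.00. Gbp7 had no value on the Atm+/+ 24 h array, so its level at 24 h was measured in Atm-/- cells alone. Isg15 itself was 0.72 and 1.26 higher and was not called (limma adjusted p = 0.0578). Rsad2, or viperin, was 3.28 higher in Atm+/+ and 1.38 higher in Atm-/- cells and was not called (limma adjusted p = 0.0848). Of 18 genes of MHC class I and antigen processing, which present peptides to T cells and respond to interferon, 2 rose: Psmb9, an immunoproteasome subunit, by 1.16 ± 0.13, and Tapbp, which loads peptide on class I, by 1.32 in the fit and 1.27 in the Atm-/- pair, with no value on the Atm+/+ 24 h array. The 2 were 11.1% of their list, against 1.30% of all genes tested. Their list's median was 0.55, and 10 of 13 with both values were higher in both.

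The windows of Ifit1 and Ifit3 are shown because both rose and hold the interferon-stimulated response element. The Ifit1 window is chr19:34640639-34640938 and the Ifit3 window chr19:34583279-34583578, both on the plus strand of GRCm38.p6, and capitals mark TTTCNNTTTC on either strand.
Ifit1: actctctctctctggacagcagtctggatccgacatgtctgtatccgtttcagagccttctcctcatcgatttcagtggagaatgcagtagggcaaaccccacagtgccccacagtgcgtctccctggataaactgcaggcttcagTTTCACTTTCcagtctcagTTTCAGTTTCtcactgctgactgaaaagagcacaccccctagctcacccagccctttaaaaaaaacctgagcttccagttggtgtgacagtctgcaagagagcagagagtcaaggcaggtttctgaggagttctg
Ifit3: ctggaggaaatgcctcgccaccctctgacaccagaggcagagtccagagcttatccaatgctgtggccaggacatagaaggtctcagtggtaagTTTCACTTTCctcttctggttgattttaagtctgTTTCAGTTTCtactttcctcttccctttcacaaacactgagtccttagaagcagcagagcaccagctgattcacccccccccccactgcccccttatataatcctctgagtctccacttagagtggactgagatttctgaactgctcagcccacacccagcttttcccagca
Each window holds 2 matches, which start 104 and 85 bases before the start of Ifit1 and 156 and 122 bases before that of Ifit3. Of the 28 genes of the interferon list with a window, 17 hold the pattern, or 60.7%, against 3.99% of all genes with a window and 3.87% of those tested. Of the genes with a window that rose at 24 h, 16 of 136 hold it, or 11.8%, and of those that fell, 5 of 197, or 2.54%.

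Markers of macrophages and blood cells were measured beside these groups. Of 16 tested, 4 rose and 0 fell, with a median change of 0.55. Lyz2, macrophage lysozyme, rose from 3.22 to 4.58 and from 2.03 to 3.26, and Cd52, a leukocyte surface peptide, from -1.40 to 0.14 and from -1.91 to -0.61. Lyz1, a close copy of Lyz2, and Adgre1, the F4/80 antigen, rose by 1.13 and 1.58 in the fit and were 1.08 and 1.46 higher in the Atm-/- pair, with no value on the Atm+/+ 24 h array. The rest of the list was mixed: of 13 with both values, 8 were higher in both genotypes, 0 were lower in both and 5 went opposite ways. These 5 were Csf1r, the receptor of the macrophage growth factor, the complement subunits C1qa and C1qc, Laptm5 and Tyrobp, each higher in Atm+/+ cells and lower in Atm-/- cells, and Mrc1, the mannose receptor, had a fitted change of -0.38 with 1 genotype measured. None of these 6 passed the test. All 16 were well above background on each of the 4 arrays. The log2 of the summed level of the 13 with a value on all 8 arrays was 5.714 and 6.372 at 0 h and 24 h in Atm+/+ cells, and 4.734 and 5.049 in Atm-/- cells. This sum adds probes whose levels are not comparable, and the brightest, such as Lyz2, weigh most in it. It does not show that the markers rose together. The median change of the list was 0.50 in Atm+/+ and 0.28 in Atm-/- cells. The part of these cells in the changes of the inflammatory and interferon genes was not tested. More cells of a type and more RNA per cell cannot be told apart in such whole-culture RNA. Fibroblast markers, 11 in all, were well above background on every array, and 0 of them passed the test.

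**Figure D2:**
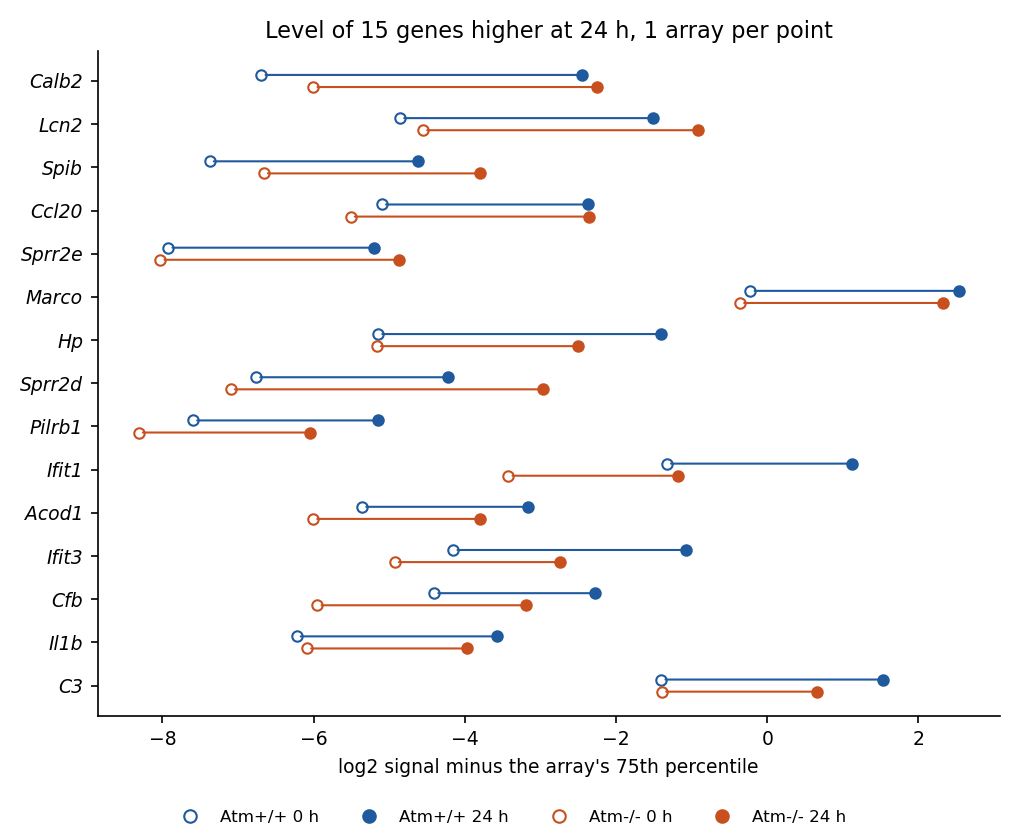
Levels of the 15 genes with the highest change in both genotypes, at 0 h (open circles) and 24 h (filled circles), 1 array per circle, on the log2 scale relative to the 75th percentile of each array. In both genotypes each filled circle lies to the right of its open circle, by 2.045 or more.

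Some of the highest changes lay outside those groups. Calb2, the calcium-binding protein calretinin, had the largest change of any called probe. It went from -6.69 to -2.46 in Atm+/+ and from -6.00 to -2.25 in Atm-/- cells, a change of 4.00 ± 0.14 (limma adjusted p = 0.012). Only 1 of its 0 h arrays was well above background, so the size of this change rests on 1 measured baseline. Spib, an ETS transcription factor of B cells and plasmacytoid dendritic cells, rose at least 3.41-fold from below background. Pilrb1, an activating immunoglobulin-like receptor, rose at least 1.30-fold. Sprr2d and Sprr2e, small proline-rich proteins of the cornified envelope of skin, rose at least 5.21-fold and 1.92-fold, and as members of a family of near-identical genes their probes may read each other. Within the list of S100 and cornified envelope genes, 2 of 22 rose and 1 fell, against 1.30% and 1.60% of all genes tested. The 1 that fell was Lor, the envelope protein loricrin, by 1.09. The rule for these 15 genes ranks them by the smaller of their 2 changes: the last one taken had 2.045 and the first left out 1.921.

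Genes of G2 and mitosis had among the lowest medians of the 28 lists at 24 h. They encode the kinases, motors and ubiquitin ligase partners that carry a cell through division. Of 38 tested, 19 fell and 0 rose, with a median change of -0.85, and all 35 with both values were lower at 24 h in both genotypes. The median was -1.03 in Atm+/+ cells and -0.72 in Atm-/- cells. Cdca8, the chromosomal passenger borealin, fell from 3.34 to 2.21 and from 3.19 to 2.01, a change of -1.16 ± 0.10 (limma adjusted p = 0.0409). Plk1, the kinase that drives entry into and exit from mitosis, fell from 3.10 to 1.80 and from 2.48 to 1.48. Both 24 h arrays lay below both 0 h arrays for these genes, and the share of all probes so separated was not counted. Espl1, or separase, fell by 1.32 and 1.04, and Hmmr, a spindle protein, by 1.06 and 1.29. Kif2c, a microtubule-depolymerising kinesin, fell from 2.93 to 1.65 in Atm+/+ cells, and its Atm-/- 0 h spot had no value. Cdk1, the mitotic kinase itself, was not well above background at 24 h and fell at least 1.77-fold.

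The other 13 called members were Cdc20, Kif23, Foxm1, Incenp, Ccna2, Nek2, Sgo1, Birc5, Racgap1, Ttk, Top2a, Bub1b and Mad2l1, with changes from -1.12 for Cdc20 to -0.68 for Mad2l1. Ccnb1, cyclin B1, was 0.48 and 0.77 lower and Mki67 0.92 and 0.26 lower, and neither was called (limma adjusted p = 0.102 and 0.142). Ube2s, which extends ubiquitin chains for the anaphase-promoting complex, and Pimreg, a protein of the metaphase to anaphase step, were among the 15 genes with the lowest change. They fell by 1.27 and 1.32.

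The windows of Cdca8 (chr4:124936868-124937167, minus strand) and Plk1 (chr7:122159185-122159484, plus strand, both GRCm38.p6) are shown because both fell and hold the cell-cycle gene homology region. Capitals mark its letters TTTGAA on either strand.
Cdca8: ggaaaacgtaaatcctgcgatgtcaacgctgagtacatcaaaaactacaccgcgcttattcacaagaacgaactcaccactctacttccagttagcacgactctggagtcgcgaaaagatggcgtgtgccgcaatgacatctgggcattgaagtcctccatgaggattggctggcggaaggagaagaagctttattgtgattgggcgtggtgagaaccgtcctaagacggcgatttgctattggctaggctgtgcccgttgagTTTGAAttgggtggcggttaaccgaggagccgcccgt
Plk1: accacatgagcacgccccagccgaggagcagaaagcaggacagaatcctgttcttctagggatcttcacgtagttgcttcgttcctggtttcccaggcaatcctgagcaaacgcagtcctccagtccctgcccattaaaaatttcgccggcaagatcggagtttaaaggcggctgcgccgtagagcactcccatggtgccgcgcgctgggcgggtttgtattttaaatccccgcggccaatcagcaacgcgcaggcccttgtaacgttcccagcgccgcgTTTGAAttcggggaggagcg
The match starts at base 14 after the start of Cdca8 and base 31 after that of Plk1. Of the 32 genes of this list with a window, 23 hold the pattern, or 71.9%, against 20.2% of all genes with a window and 14.8% of those tested. CCAAT was held by 26 of the 32, or 81.2%, against 41.1% of all and 43% of those tested. Among the genes that fell at 24 h the shares were lower, with TTTGAA in 55 of 197, or 27.9%.

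S phase and replication genes build the machinery of DNA synthesis and its nucleotides. Of 38 tested, 10 fell and 0 rose, with a median change of -0.78, and 30 of 34 with both values were lower in both genotypes. Tk1, thymidine kinase, fell from 2.95 to 1.74 and from 2.64 to 1.42, a change of -1.22 ± 0.15 (limma adjusted p = 0.0456). Cdt1, the licensing factor, fell by 1.27 and 0.94, and Prim1, the primase, by 1.07 and 0.97. Other called members were Uhrf1, Rrm2, Mcm10, Cdc45, Gins2 and Pola2, with changes from -0.93 to -0.63. Mcm5, Cdc6 and Pcna had changes of -1.39, -1.01 and -0.78 and were not called, with limma adjusted p of 0.145, 0.101 and 0.0777, and 1 of the 24 h arrays of Mcm5 was not well above background.

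Of 36 DNA repair and checkpoint genes, 5 fell and 0 rose, with a median change of -0.37. Palb2 and Brca1, which act together in homologous recombination, fell by 0.88 and 0.76, and Fanca, of the crosslink repair core complex, by 0.81. H2ax, the histone that Atm phosphorylates beside breaks, fell by 1.14, with no value on the Atm+/+ 24 h array. Of 42 replication-dependent histone genes, 3 fell and 0 rose: H2ac22 by 1.43, H2ac11 by 1.12 and H3c10 by 0.93. The median of that list was -0.07, near that of all genes, and it changed sign in 2 of 5 other scalings.

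**Figure D3:**
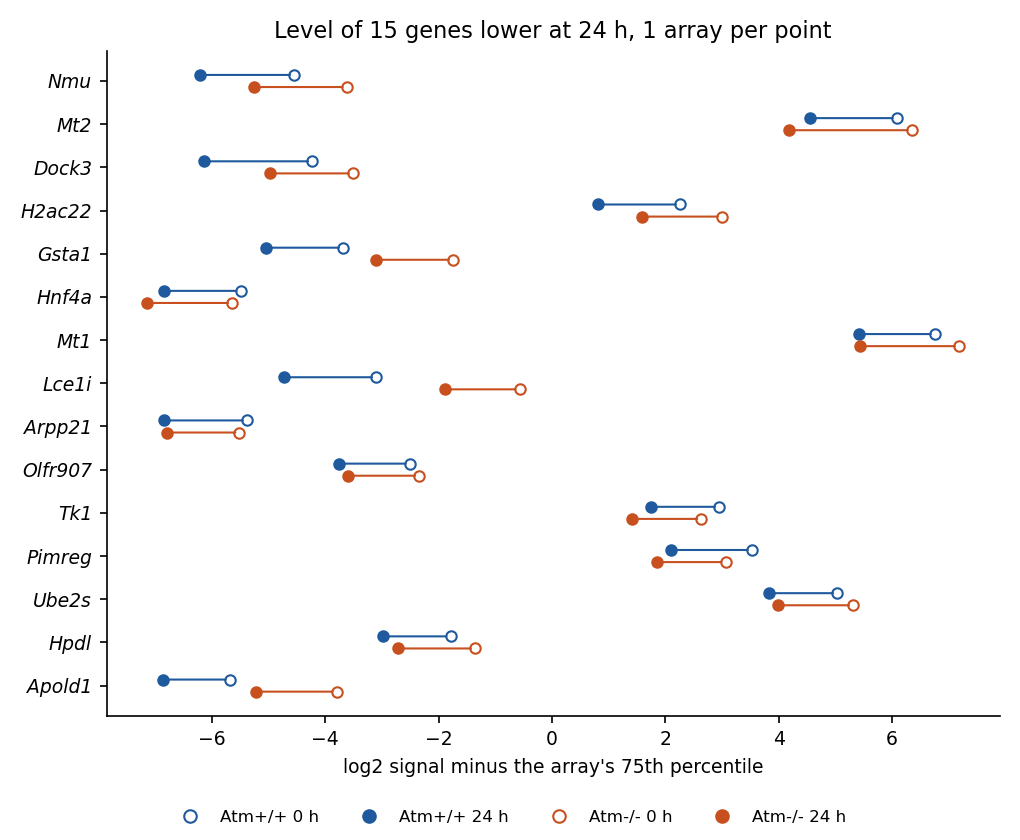
Levels of the 15 genes with the lowest change in both genotypes, at 0 h (open circles) and 24 h (filled circles), 1 array per circle, on the log2 scale relative to the 75th percentile of each array. In both genotypes each filled circle lies to the left of its open circle, with a smaller change of -1.174 or lower.

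The metallothioneins, small proteins that bind zinc and copper, were among the lowest changes. Mt2 fell from 6.09 to 4.55 in Atm+/+ and from 6.35 to 4.18 in Atm-/- cells, a change of -1.86 ± 0.19 (limma adjusted p = 0.0441). Mt1 fell from 6.76 to 5.42 and from 7.19 to 5.44. Both 24 h arrays lay below both 0 h arrays for each gene, and the share of all probes so separated was not counted. Gsta1, a glutathione transferase with close copies, fell by 1.35 and 1.37. These were the 3 called among 29 genes of the Nrf2 and metal response, which had 0 higher and a median of -0.18. Hmox1, haem oxygenase, another gene of that response, moved apart in the genotypes, from 2.92 to 3.89 in Atm+/+ and from 4.80 to 2.71 in Atm-/- cells.

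The Mt2 window (chr8:94172368-94172667, plus strand, GRCm38.p6) is shown because this gene had the lowest change of its list. Capitals mark TGCGCNC and TGCACNC, letters of the metal response element, on either strand.
Mt2: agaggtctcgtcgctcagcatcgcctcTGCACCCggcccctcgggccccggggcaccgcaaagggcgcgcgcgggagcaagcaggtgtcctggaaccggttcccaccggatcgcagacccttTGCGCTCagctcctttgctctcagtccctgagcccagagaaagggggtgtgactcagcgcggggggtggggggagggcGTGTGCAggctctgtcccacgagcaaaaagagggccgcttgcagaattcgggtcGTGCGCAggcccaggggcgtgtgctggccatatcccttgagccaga
It holds 4 matches, the nearest of which starts at base 5 after the start site. Of 24 genes of the list with a window, 11 hold these letters, or 45.8%, against 28.2% of all genes with a window and 39% of those tested.

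The lowest change by the smaller of both genotypes was that of Nmu, the neuropeptide neuromedin U, which fell by 1.65 and 1.63. Dock3, an activator of Rac, fell from -4.23 to -6.15 and from -3.51 to -4.98, and Hpdl, a protein related to a dioxygenase of tyrosine breakdown, by 1.19 and 1.36. Apold1 fell by 1.30. For Nmu, Dock3 and Apold1, 1 of the 24 h arrays was not well above background, so the size of the fall there is uncertain. Lce1i, of the late cornified envelope, fell by 1.48, and Olfr907, an olfactory receptor gene, by 1.25. Hnf4a, a nuclear receptor of liver and gut, and Arpp21, a phosphoprotein of neurons, were below background at 24 h and fell at least 1.24-fold and 1.35-fold.

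The list of cholesterol synthesis and uptake genes had a median change of -0.69, and 18 of 20 with both values were lower in both genotypes. By the test, however, 2 of 24 fell and 1 rose. Mvk, mevalonate kinase, fell by 0.97 and 0.64. Stard4, a sterol transporter, fell by 1.70 in the fit and by 1.63 in the Atm-/- pair, with no value on the Atm+/+ 24 h array. The 1 that rose was Abca1, which exports cholesterol and neither makes it nor takes it up, from 0.70 to 2.06 and from 0.52 to 1.27. Of 35 immediate-early and stress genes, 2 fell, or 5.71% against 1.60% of all genes tested, and 0 rose. The 2 were the phosphatase Dusp2, by 0.90, and the AP-1 subunit Fosl1, by 0.84. Fos, Egr1, Atf3 and Jun did not pass.

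Targets of p53 were mostly not past the threshold at 24 h. Of 45 tested, 1 rose, or 2.22% against 1.30% of all genes tested, and 0 fell. A single call is near that share. The median change was 0.17, and 21 of 38 with both values were higher in both genotypes. The gene that rose was Casp1, the protease that matures interleukin 1 beta, from -1.43 to -0.61 and from -2.41 to -1.68. Cdkn1a, an inhibitor of cyclin-dependent kinases, went from 2.39 to 2.07 in Atm+/+ and from 2.72 to 3.31 in Atm-/- cells. Mdm2, the ubiquitin ligase of p53, went from 4.32 to 4.51 and from 4.18 to 4.55. Ccng1 and Gdf15 had changes of 0.34 and 0.01, and neither they nor Cdkn1a and Mdm2 passed (limma adjusted p of 0.323, 0.977, 0.81 and 0.503). With 2 arrays a side, an adjusted p that misses the threshold does not show that these genes did not change.

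Genes linked to senescence had 0 of 26 past the threshold and a median of -0.23. Lmnb1, lamin B1, was 0.96 and 0.62 lower and was not called (limma adjusted p = 0.101). Of 35 genes of the fibrillar matrix and of myofibroblasts, 0 passed, and Col1a1, the main collagen chain, read 7.66 and 7.69 in Atm+/+ cells and 7.57 and 7.46 in Atm-/- cells at 0 h and 24 h. Of 17 metalloproteinases and inhibitors, 2 rose, Mmp19 by 1.02 ± 0.12 and Mmp10 as above, and 0 fell.

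**Figure D4:**
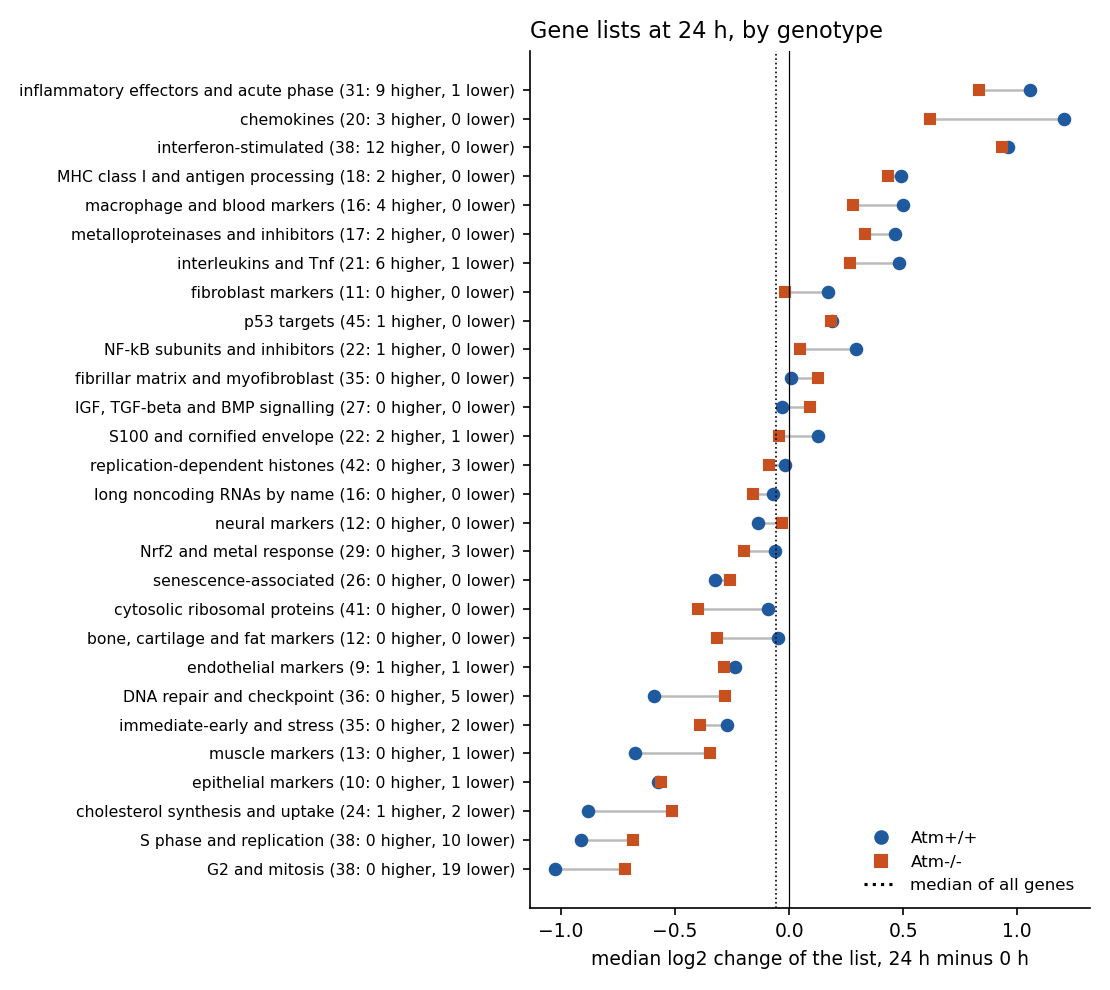
Median log2 change from 0 h to 24 h of each of 28 gene lists in Atm+/+ cells (circles) and Atm-/- cells (squares), with the number of genes tested and called beside each name, and the median of all genes as a dotted line. Inflammatory, chemokine and interferon lists lie at the top in both genotypes, and the lists of S phase and of G2 and mitosis at the bottom.

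Of the 37246 probes measured, 7599 were taken as noncoding. Of 6681 noncoding probes tested, 36 (0.539%) rose and 88 (1.32%) fell. By the class given in the authors' deposited table, sense-overlapping transcripts had 21 higher and 46 lower of 3225, antisense transcripts 4 and 9 of 925, bidirectional transcripts 2 and 16 of 788, and intergenic transcripts 2 and 6 of 588. The antisense transcript uc008wdi was not well above background at 0 h, at -8.02 and -8.23, and read -4.89 and -4.79 at 24 h, a rise of at least 2.20-fold (limma adjusted p = 0.012). It also read between -8.19 and -7.85 at 4 h and 8 h, so 24 h was the first time at which it stood above background. AK036493, a sense-overlapping transcript, rose from -4.09 to -1.89 and from -6.02 to -3.59, a change of 2.32 ± 0.24, with 1 of its 0 h arrays not well above background. Whether a probe of that class also reads the mRNA it overlaps was not tested. The other named probes that rose were uc008cke, uc007pps and AK005156. Neither 0 h array was well above background for uc008cke or AK005156, and they rose at least 2.28-fold and 2.29-fold, while uc007pps had a change of 1.80, with 1 of its 0 h arrays not well above background.

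Among the noncoding probes that fell, uc007pjf, a bidirectional transcript, was measured on all 4 arrays and went from -3.13 to -4.65 and from -3.14 to -4.74. AK082312, of the same class, went from -4.29 to -7.19 and from -4.04 to -5.80, with 1 of its 24 h arrays not well above background. BC037679, AK029225 and uc008rkb were below background at 24 h and fell at least 1.37-fold, 1.82-fold and 1.49-fold. Of 16 long noncoding RNAs chosen by name, 0 passed the test. Malat1, a nuclear RNA of speckles, was 0.39 and 0.62 lower (limma adjusted p = 0.087), and Neat1, the scaffold of paraspeckles and a known p53 target, read 1.31 and 1.31 in Atm+/+ cells and 1.42 and 1.46 in Atm-/- cells.

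The earlier times place the 24 h levels within the course. Of 233 probes that rose and had a value on all 8 arrays, 182 were highest at 24 h in both genotypes and 38 were highest at 4 h or 8 h in both. Of 338 that fell, 331 were lowest at 24 h in both. The calls compare 24 h with 0 h, so these counts are set in part by the choice of probes. The same share over all probes was not counted. Il1b stood at 0.21 and 0.43 at 4 h and 8 h in Atm+/+ cells before -3.57 at 24 h. Tnf peaked at 2.41 and 1.15 at 4 h in the genotypes, far above its 24 h level. Acod1 and Ccl20 took the same shape, with 0.49 and -0.56 at 8 h in Atm+/+ cells. Lcn2, C3, Calb2 and the interferon genes Ifit1, Oasl2 and Irf7 were instead highest at 24 h in both genotypes, as were 22 of 35 interferon-stimulated genes. Plk1 read 2.80 and 2.82 at 4 h and 8 h in Atm+/+ cells and 1.80 at 24 h, and Cdca8 3.09, 3.13 and 2.21. Of the 35 G2 and mitosis genes, 31 were lowest at 24 h in both genotypes. For these list counts, too, the share over all genes was not counted.

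**Figure D5:**
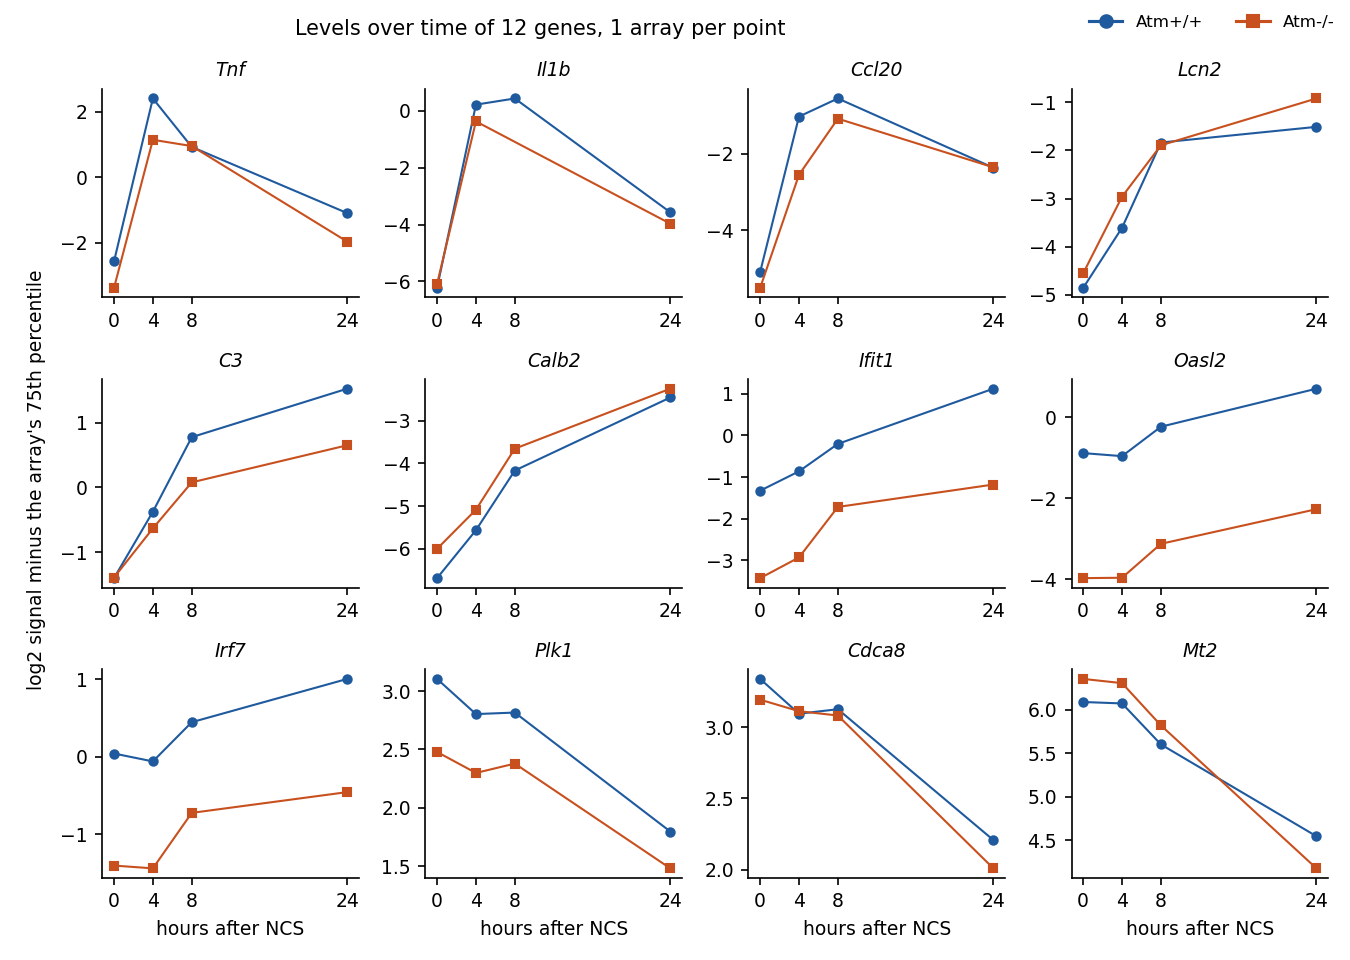
Levels of 12 genes at 0, 4, 8 and 24 h in Atm+/+ cells (circles) and Atm-/- cells (squares), 1 array per point, on the log2 scale relative to the 75th percentile of each array. Tnf, Il1b and Ccl20 are highest at 4 h or 8 h and remain above 0 h at 24 h, the middle genes from Lcn2 to Irf7 are highest at 24 h, and Plk1, Cdca8 and Mt2 are lowest there. The Atm-/- point of Il1b at 8 h has no value.

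Whether the 24 h response differed between genotypes was tested as an interaction with 1 residual degree of freedom. Of 21556 probes with all 8 values, 0 (0%) passed limma's adjusted p of 0.05, and 2817 had an unadjusted p under 0.05. A count of 0 in so small a design does not show that the genotypes responded alike. The change in Atm-/- cells minus that in Atm+/+ cells was -3.05 for Hmox1, -1.90 for Rsad2 and 0.91 for Cdkn1a, each with a limma adjusted p of 0.358.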

How the data were processed

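Total RNA of 8 fibroblast cultures, 1 for each of 2 genotypes at 0, 4, 8 and 24 h, was labelled with Cy3 and hybridised to Agilent 1-colour arrays. Per the file headers, the deposited scanner files were made with Feature Extraction 10.5.1.1 on a design of mouse build mm9, and give for each spot an intensity, a local background and outlier flags. The intensity used, the processed signal, was background-subtracted before the authors deposited it. The authors' deposited log2 table of noncoding probes equals the log2 of that signal minus 1 constant per array, within 0.02, and was used for probe classes and as an alternative. The header of that table calls its values ratios to 0 h, which the values are not, and its centring is not given in the sources used here.

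Control and negative spots were left out. The log2 of the processed signal was averaged over the spots of a probe, and the array's 75th percentile over 37246 probes was subtracted. A value was then left out where all spots of the probe were outliers. Probes well above background on at least 2 of 8 arrays were kept (23297, of which 6711 noncoding). limma 3.58.1 in R 4.3.3 fitted time and genotype to all 8 arrays, with Benjamini-Hochberg adjustment over all probes tested. A second fit tested the difference of the response between genotypes. No array was imputed, and a missing value dropped that array for that probe. The fits were tested on simulated data in which a small set of probes changed. At a log2 change of 1 the main fit recovered 0% of them. At 2 it recovered 73.5% and called 11 other probes. The fit of the difference between genotypes recovered 0% at either size. In the data, 6071 of 23161 probes had an unadjusted limma p under 0.05 in the main fit. The adjustment depends on the share of probes that change, so the recovered percentages do not carry over to the calls above. With 1 array per genotype and time, the number of arrays limits the precision. 22212 probes had 1 gene symbol through RefSeq, 15034 none and 0 several. Where a gene had several probes, the one with the highest mean was used for gene counts. Of 767 list genes, 739 were on the array and 686 were tested. Promoter windows came from RefSeq (GRCm38.p6), and 523 of the 686 had one.

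Where a probe was not well above background on both arrays of a time, the change is a bound: the mean of the brighter time against the higher of the dim probe's own signal and the lowest signal well above background on each array. Named genes are the 15 higher and 15 lower called genes with the largest change in the genotype where it is smaller, 5 and 5 noncoding probes likewise, for each list the 6 members with the largest change and some fixed members, and Atm. Other called members of a list are named beside its count, and a few members are not reported here. The genes and lists were chosen with earlier results of these data known. Alternatives covered scaling, outliers, background, the filter, the arrays in the fit and the genotype term.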

Additional observations from a re-analysis of the deposited data

How the results depend on the processing

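The number of probes past the threshold, 591 here, was 570 after quantile normalization, 409 with outlier spots kept and 695 with normexp background correction, sharing 492, 396 and 425 probes with the 591. It was 178 with the median of all probes as reference, 33 with outlier spots removed before scaling, 1279 of 20082 among probes well above background on all 8 arrays and 7 with no genotype term. It was 0 with no filter on dim probes, with the 0 h and 24 h arrays alone, without the 4 h arrays and without the 8 h arrays, where limma left 6100, 3266, 4596 and 5565 probes at an unadjusted p under 0.05. Leaving out 1 of the 4 arrays gave 0 to 7. Fits with fewer arrays have fewer degrees of freedom by construction, and the cause of the other shifts was not tested. List genes past the threshold, 93 here, numbered 42, 12 and 148 under the median reference, the earlier removal of outliers and the stricter filter, 2 with no genotype term, 0 with no filter, with the 0 h and 24 h arrays alone and without the 4 h or the 8 h arrays, and 0 to 1 without 1 of the 4 arrays. Probes past 2-fold in both genotypes, 259 here, numbered 92 with normexp and 154 under the stricter filter, and 1346 at 1.5-fold and 43 at 3-fold in place of 2-fold. The difference of the response between genotypes had 0 calls under 5 settings and 11 of 21556 with normexp. In the authors' log2 table, 1 of the 10 named noncoding probes passed the test, and all kept their direction. That table holds the same signal with another centring, so the kept direction is no independent check. Over 6 scalings, the list medians kept their sign except those of histones, S100 and cornified envelope genes, named long noncoding RNAs and neural markers. Members called higher ran from 4 to 11 in the inflammatory effector list and from 3 to 13 in the interferon list. Probes near background have no measured level, which limits all folds from such a baseline.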

Other observations

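Lists of other cell types and of housekeeping functions also had values at 24 h. Of all genes tested, 1.30% rose and 1.60% fell, and 1 call in a short list says little about that list. Of 41 cytosolic ribosomal protein genes, 0 passed the test and 29 of 39 with both values were lower in both genotypes, with a median change of -0.23. Of 10 epithelial markers, 1 fell, the keratin Krt8, by 0.94 on the log2 scale. The median of that list was -0.55, with 8 lower in both genotypes, 0 higher in both and 2 opposite. Of 9 endothelial markers, Kdr, a receptor of vascular endothelial growth factor, fell by 1.27 and Pecam1, a junction protein, rose by 0.97. Of 13 muscle markers, 1 fell, the myogenic factor Myod1, by 0.98. Their median was -0.52, and of 12 with both values 8 were lower in both genotypes, 1 was higher in both and 3 were opposite. None of 12 bone, cartilage and fat markers, 12 neural markers or 27 genes of IGF, TGF-beta and BMP signalling passed limma's test at the 1 probe per gene used. For Pparg, 1 of its 2 probes passed, but not the probe with the highest mean, which was used here.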
